A study of Mus musculus with 16 samples.

Results

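A set of 9 genes that mark trophoblast or simple epithelium were followed across mouse pluripotent stem cell lines. They were the transcription factor genes Cdx2, Eomes, Elf5, Gata3, Tfap2c and Hand1 and the keratin genes Krt8, Krt18 and Krt19, taken by gene name from a table of 22552 genes. The table lists 8 of the 9 under these names and Tfap2c under its older symbol Tcfap2c. RNA-seq was available for 16 lines, with 1 library per line, and expression is given as FPKM, read numbers per gene divided by transcript length and by library size.

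AN lines are embryonic stem cells made by transferring the nucleus of an adipocyte progenitor cell (APC) into an enucleated oocyte (ntESCs), and AI lines are induced pluripotent stem cells made from APCs with doxycycline. All 16 lines carry the strain label 129-M2rtTA, and both kinds trace back to APCs of mice that were themselves made from induced pluripotent cells with inducible reprogramming factors, so all 4 groups share those insertions. Fully reprogrammed lines (F) and partially reprogrammed lines (P) were told apart in the study by tetraploid complementation, a test of whether injected cells can form a whole animal, and the lines were matched to these groups by name, since the sample labels give the kind of cell but not its state. AN1, AN9, AN15 and AN20 formed AN F (n = 4), and AN2, AN3, AN5, AN6 and AN7 formed AN P (n = 5). AI3, AI7, AI10 and GS32 formed AI F (n = 4), and AI9, GS4 and GS9 formed AI P (n = 3). GS4, GS9 and GS32 came from earlier work, and the source entries of GS9 and GS32 name GS4, so results in AI rest on the titles being right. Passage numbers ran from 5 to 17, with the highest in GS4. Each line gave 1 library, and the blastocysts behind the ntESC lines were plated on mouse embryonic fibroblast feeders. The p-values measure the spread between these lines. Relative depth, read from the steps between low FPKM values, ran from 0.961 times that of AN1 in AI7 to 1.26 times in GS4, and the absolute number of reads is unknown.

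The trophoblast is the outer lineage of the blastocyst and forms the fetal part of the placenta. Its fate is set in the embryo by Hippo signalling, TEAD4 and then CDX2, EOMES, ELF5, GATA3 and TFAP2C, while HAND1 acts in trophoblast giant cells. Several of these factors also work elsewhere: EOMES and CDX2 in the primitive streak and the posterior embryo, TFAP2C in germ cells and pluripotent cells, and HAND1 in the heart and lateral mesoderm. KRT8, a type II keratin, pairs with the type I keratins KRT18 and KRT19 to build the filaments of simple epithelia, among them the trophectoderm.

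Krt8 and Krt18 lie next to each other on chromosome 15. In mm9, the build the authors used, Krt8 spans chr15:101827142-101834773 on the minus strand and Krt18 chr15:101858647-101862457 on the plus strand. They are 23873 bases apart with 0 annotated genes between them. Krt19 lies at chr11:100002124-100009979 on the minus strand. Cdx2 is at chr5:148112381-148118846 on the minus strand and Eomes at chr9:118387330-118395250 on the plus strand. Elf5 (103251845-103291146, plus strand), Gata3 (9778705-9811661, minus strand) and Tfap2c (172375093-172384122, plus strand) lie on chromosome 2, and Hand1 lies at chr11:57642207-57646320 on the minus strand. Gata3 overlaps 3 annotated genes, 1 of them on its own strand, and the strand setting of the counting is not given in the sources used here, so its values are uncertain.

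RefSeq start-site sequences of build GRCm38.p6 were matched to 6 of the 9 genes (Cdx2, Eomes, Elf5, Gata3, Krt8 and Krt18). The 250 bases before the start are shown for the pair of neighbouring keratin genes and for Cdx2 and Eomes, because these 4 genes followed one another across the lines. They read 5′ to 3′ in the direction of the gene, and capitals mark matches to the motifs searched. The windows are chr15:102004343-102004592 (minus), chr15:102027966-102028215 (plus), chr5:147307250-147307499 (minus) and chr9:118477939-118478188 (plus).
Krt8: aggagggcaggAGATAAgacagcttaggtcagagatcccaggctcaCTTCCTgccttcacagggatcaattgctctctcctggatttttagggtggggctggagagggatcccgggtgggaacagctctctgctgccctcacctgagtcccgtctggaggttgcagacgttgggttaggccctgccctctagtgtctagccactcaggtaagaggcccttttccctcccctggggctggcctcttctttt
Krt18: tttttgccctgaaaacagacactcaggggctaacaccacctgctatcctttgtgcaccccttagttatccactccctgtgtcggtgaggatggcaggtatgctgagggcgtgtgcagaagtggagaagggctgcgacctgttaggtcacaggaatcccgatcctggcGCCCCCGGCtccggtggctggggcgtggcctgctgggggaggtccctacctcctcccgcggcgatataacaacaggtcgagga
Cdx2: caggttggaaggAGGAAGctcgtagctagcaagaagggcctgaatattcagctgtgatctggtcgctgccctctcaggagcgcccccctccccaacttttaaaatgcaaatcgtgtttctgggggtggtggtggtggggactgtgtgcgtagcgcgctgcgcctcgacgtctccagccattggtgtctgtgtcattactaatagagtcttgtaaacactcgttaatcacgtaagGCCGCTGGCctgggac
Eomes: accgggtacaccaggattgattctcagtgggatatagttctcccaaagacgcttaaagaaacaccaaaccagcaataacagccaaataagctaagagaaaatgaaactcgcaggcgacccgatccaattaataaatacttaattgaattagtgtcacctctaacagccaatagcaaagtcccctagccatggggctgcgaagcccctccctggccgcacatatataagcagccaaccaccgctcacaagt

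The search used short core motifs of factor families to which the members or their regulators belong, on both strands. T-box factors such as EOMES were represented by the letters TCACACC. AP-2 factors such as TFAP2C were represented by GCCNNNGGC. The motif of GATA factors was AGATAA, and the one used for CDX2 and its relatives was TTTATNG. For ETS factors such as ELF5 the motif was AGGAAG, and for the TEAD factors of the Hippo pathway it was GGAATG. The Krt8 window held a GATA match 239 bases and an ETS match 204 bases before the start. The Krt18 window held an AP-2 match 83 bases before the start, so the neighbours had no motif in common. Cdx2 had an ETS match at 238 and an AP-2 match at 16 bases before the start, and Eomes had no match to these letters. Among 32851 mouse promoters of the same length, 29.5% held the ETS motif, 13.7% the AP-2 motif, 12.6% the TEAD motif, 9.99% the GATA motif, 9.81% the CDX motif and 3.33% the T-box motif. No matches overlapped in these windows, and a match describes the letters only.

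The 3 keratin genes had the largest SD of log2(FPKM + 1) over the lines among the members. Among the AN F lines, Krt8 had 46.4 FPKM in AN1, 85.7 in AN9, 166 in AN15 and 46.5 in AN20. Among the AN P lines it had 45.7 FPKM in AN2, 133 in AN3, 69.3 in AN5, 662 in AN6 and 52.3 in AN7. In AI F it had 18.7 FPKM in AI3, 128 in AI7, 180.5 in AI10 and 54.7 in GS32, and in AI P 156 in AI9, 17.8 in GS4 and 119 in GS9. The ranges of the 4 groups overlapped, and AN6 stood above all other lines. The highest line had 37.2 times the FPKM of the lowest.

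Krt18, the type I partner of Krt8, ranked the lines in much the same way. It had 34.9, 55.4, 104 and 33.7 FPKM in AN F and 33.4, 83.9, 49.7, 469 and 34.8 in AN P, in the order of lines above. In AI F it had 20.5, 75.8, 94.8 and 35.2 FPKM, and in AI P 86.4, 11.3 and 80.4. AN6 was again the highest line and GS4 the lowest, 41.3-fold apart. Krt19, a smaller type I keratin, had 6.34, 10.6, 16.5 and 4.56 FPKM in AN F and 5.84, 15.6, 8.24, 72.1 and 6.06 in AN P. Its AI F values were 4.56, 15.8, 22.9 and 5.50 FPKM and its AI P values 14.4, 3.81 and 16.2. The same lines stood at both ends, with an 18.9-fold range.

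Cdx2, which specifies trophectoderm in the blastocyst and posterior identity later, was low in most lines. It had 0.590, 0.688, 2.59 and 0.885 FPKM in AN F and 0.739, 3.72, 0.893, 4.75 and 0.797 in AN P. The AI F lines had 0.383, 3.31, 10.5 and 0.915 FPKM of Cdx2, and the AI P lines 1.96, 0.585 and 1.20. AI10 had the highest value, and the range was 27.4-fold. Eomes, a T-box factor of trophoblast stem cells and of the primitive streak, was detected in every line. It had 6.27, 5.73, 9.88 and 3.80 FPKM in AN F and 6.24, 8.13, 5.39, 16.2 and 3.54 in AN P. In AI F, Eomes had 2.76, 8.36, 24.5 and 6.92 FPKM, and in AI P 7.69, 4.36 and 11.7. AI10 and AN6 again held the highest values, and the groups overlapped.

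Tfap2c, an AP-2 factor expressed in trophoblast and in naive pluripotent cells, had the narrowest fold range of the members with no line at 0. Its values ran from 11.7 FPKM in GS4 to 21.7 in AI7, a 1.87-fold range. Gata3, a GATA factor of trophectoderm, ran from 0.280 FPKM in GS4 to 1.44 in AI10. Hand1, a basic helix-loop-helix factor of giant cells and lateral mesoderm, ran from 0.219 FPKM in AI3 to 1.67 in AN6. Both stayed under 2 FPKM in every line. Elf5, an ETS factor that marks committed trophoblast stem cells, was at or near 0 throughout. It was listed at 0 in 4 lines (AN9, AN5, AI3 and GS32), and its highest value was 0.0791 FPKM in AN6. The Elf5 values were about 1 to 4 times the value of the smallest step in each line, so they rest on very few reads.

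**Figure D1:**
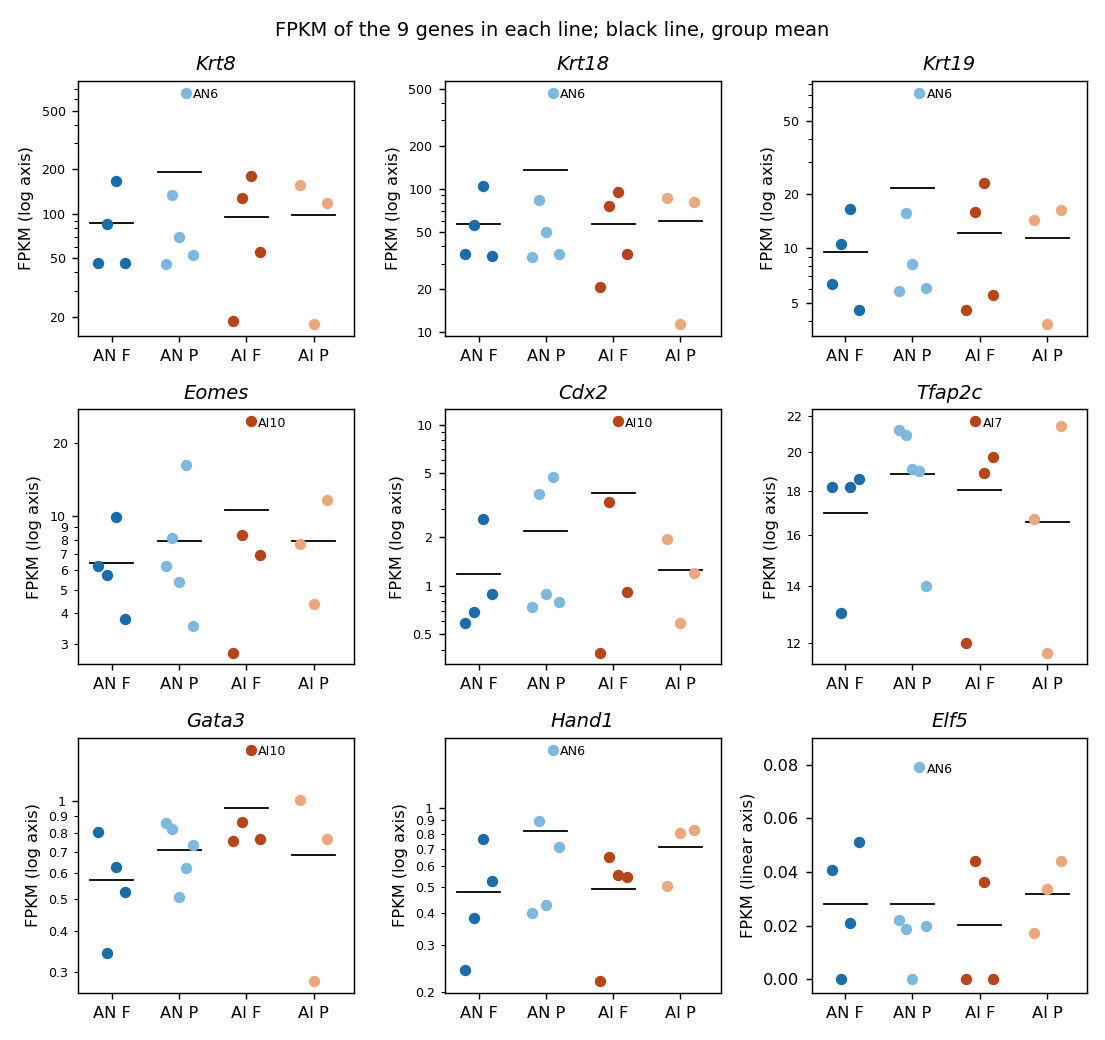
FPKM of the 9 genes (log axes, but linear for Elf5) in each line of the 4 groups, with 1 point per line, a black bar at the group mean and the highest line named. AN6 stands apart for Krt8 (662 FPKM), Krt18 (469) and Krt19 (72.1), AI10 is highest for Cdx2 and Eomes, and the groups overlap in every panel.

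In order of mean FPKM over the 16 lines, Krt8 (124) came first, followed by Krt18 (81.5), Tfap2c (17.8), Krt19 (14.3), Eomes (8.22), Cdx2 (2.16), Gata3 (0.732), Hand1 (0.632) and Elf5 (0.0268). Krt8 exceeded Krt18 in 15 of 16 lines, and Krt18 exceeded Tfap2c in 15 of 16. Tfap2c exceeded Krt19 in 14 lines and Krt19 exceeded Eomes in 12, so the middle of the order changed between lines. Eomes was above Cdx2 in all 16 lines. Gata3 was above Hand1 in 9 of 16, and these neighbours were not separated.

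For every tested member, most of the variance lay between lines of the same group. On the log2(FPKM + 1) scale the SD over lines was 1.29 for Krt8, 1.18 for Krt18, 1.02 for Krt19, 0.855 for Cdx2 and 0.717 for Eomes. The median SD of the 13185 genes with a mean of at least 0.5 FPKM was 0.212. By SD these genes ranked 185, 203, 215, 261 and 314 among the 13185. Without AN6, the ranks were 205, 238, 280, 259 and 335, so the spread did not come from that line alone. Tfap2c (0.281), Hand1 (0.272) and Gata3 (0.221) lay nearer to the median, at ranks 3422, 3717 and 6059. Without AN6 their ranks were 2922, 7182 and 5278, so the place of Hand1 depended on that line. Of the variance of Krt8, 4.83% lay between the 4 groups, compared with a median of 24.7% for all tested genes. The other members that were tested ranged from 3.68% for Eomes to 27.5% for Gata3.

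The study compared fully with partially reprogrammed lines to find genes tied to the pluripotency state, first in AN. No member passed the test between AN F and AN P. In limma fits of log2(FPKM + 1), 0 of the 8 members above the filter of 0.5 FPKM had an adjusted p under 0.05, and 0% of all 13185 genes did. At an unadjusted p under 0.05, the counts were 0 of 8 members and 6.01% of all genes. Krt8 averaged 86.2 ± 56.4 FPKM in AN F (SD, n = 4) and 192 ± 265 in AN P (SD, n = 5). The log2 difference of Krt8 (F minus P) was -0.53, with a 95% interval from -2.23 to 1.17 and an adjusted p of 0.797 by limma. Krt18 had a difference of -0.54 and Krt19 of -0.55. Cdx2 had a difference of -0.42 (interval -1.37 to 0.53), Eomes of -0.17, Hand1 of -0.27, Tfap2c of -0.14 and Gata3 of -0.12, and their intervals all included 0. The lowest adjusted p of a member was 0.641. The 3 keratin values turned on AN6: without it, the log2 differences were 0.12 for Krt8, 0.12 for Krt18 and 0.04 for Krt19, and that of Eomes was 0.10.

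In AI, no member passed the test between F and P lines either. The adjusted p passed in 0 of 8 members and 0% of all genes, and the unadjusted p in 0 of 8 members and 7.77% of all genes. Krt8 averaged 95.5 ± 72.7 FPKM in AI F (SD, n = 4) and 97.7 ± 71.5 in AI P (SD, n = 3), with a log2 difference of 0.01 (95% interval -2.26 to 2.27). Krt18 had a difference of 0.14 and Krt19 of 0.02. Cdx2 averaged 3.78 ± 4.66 FPKM in AI F and 1.25 ± 0.687 in AI P, and its log2 difference of 0.64 had an interval from -0.99 to 2.27. That value was 0.05 without AI10 and 1.07 without AI3. Gata3 had a difference of 0.23, Eomes and Tfap2c of 0.13 each, and Hand1 of -0.20, with the lowest adjusted p of the members (0.529 by limma). The value of Gata3 was 0.04 without GS4. These intervals were wide, and all 8 included 0.

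Earlier and newly derived lines are unevenly spread over AI F and AI P. Among the 4 new lines (3 F and 1 P), the log2 difference of Krt8 was -1.02, and among the 3 earlier lines (1 F and 2 P) it was 0.23. Krt18 gave -0.69 and 0.19, Krt19 -0.24 and -0.48, and Cdx2 0.47 and 0.03, with too few lines for a test. The 30 genes of a fibroblast list, which would mark feeder cells, were all higher on average in AI F than in AI P, with a median log2 difference of 0.91. Of these, 0 of 30 passed the adjusted threshold and 5 of 30 an unadjusted p of 0.05, and in the interaction described below 19 of 30 did, with a median of 1.23. Their summed FPKM ran from 2041 to 4042 in AI F and from 1044 to 3249 in AI P, and from 1638 to 2911 in AN F and from 1974 to 3688 in AN P. Gata3 had a median r of 0.52 with these 30 genes over the lines, while Krt8 had -0.01, and the part of feeder cells in the value of Gata3 was not tested. In bulk samples, fewer cells that express a gene and less RNA per cell cannot be told apart.

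AI and AN lines were also compared directly, averaged over F and P. No member passed: 0 of 8 were called at the adjusted threshold, as were 0% of all genes, and 0 of 8 were called unadjusted, against 3.52% of all genes. Krt8 had a difference of -0.35 (AI minus AN, log2, interval -1.72 to 1.01), Krt18 of -0.43, Krt19 of -0.09, Eomes of 0.22, Cdx2 of 0.19, Gata3 of 0.13, Tfap2c of -0.07 and Hand1 of -0.02. The sign of the keratin values depended on the earlier lines, for without GS4, GS9 and GS32 they were 0.28, 0.13 and 0.30. Whether F and P lines differed by unequal amounts in the 2 kinds of cell was tested as an interaction. Again 0 of 8 members and 0% of all genes passed the adjusted threshold, and 0 of 8 members passed unadjusted, against 16.6% of all genes. The lowest adjusted p of a member there was 0.381, for Gata3.

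Exact permutation tests were run as well, and these also cover Elf5. Of 36 two-sided tests (9 genes in 4 comparisons), 0 had a p under 0.05. The lowest exact p was 0.238 in AN, 0.229 in AI, 0.269 for AI against AN and 0.153 for the interaction. The smallest p that these designs allow is 0.0159 in AN and 0.0571 in AI. The 9 tests in AI therefore could not reach 0.05, and their part in the count of 36 was fixed in advance. The ranges of the 9 genes overlapped between the groups in every one of the first 3 comparisons. The shares of all genes that overlap or pass an exact test are not given here, so these counts describe the members only.

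**Figure D2:**
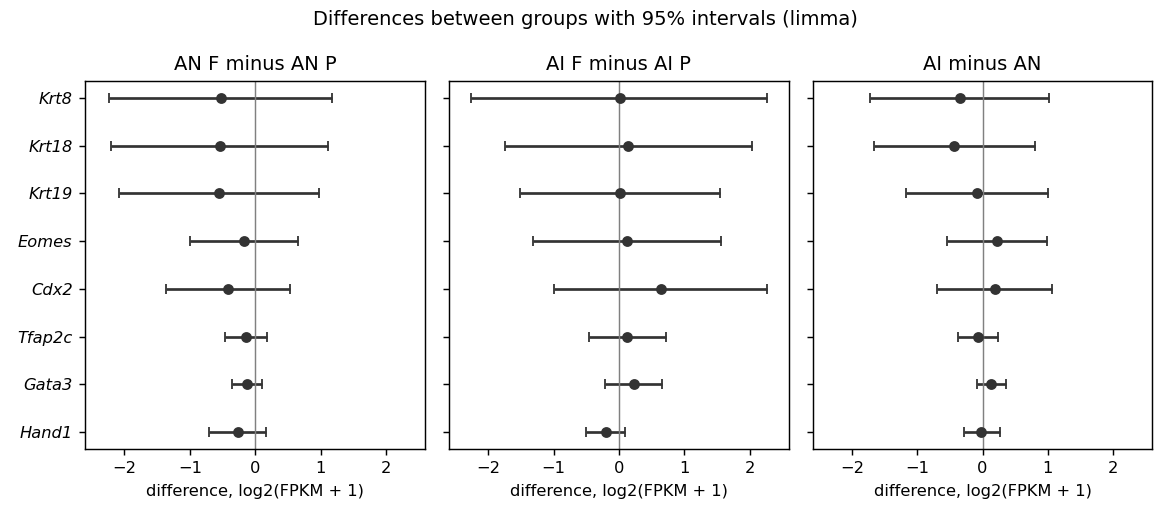
Differences in log2(FPKM + 1) of the 8 members above the filter, with 95% intervals from limma, for AN F minus AN P, AI F minus AI P and AI minus AN. All 24 intervals include 0, and Krt8 and Krt18 have the widest in each panel, for example -2.26 to 2.27 for Krt8 in AI.

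Although no member passed a test between groups, 5 of them followed one another from line to line. Over the 16 lines, Pearson's r of log2(FPKM + 1) was 0.99 between Krt8 and Krt18 (Spearman's rho 0.99), 0.96 between Krt8 and Krt19 (rho 0.92) and 0.97 between Krt18 and Krt19 (rho 0.94). All values of a line come from 1 library, and these relations are descriptions. The Krt8 to Krt18 relation was 0.99 without GS4 and AN6, the lines farthest from the median, and was 1.00 within the 9 AN lines and 0.98 within the 7 AI lines. In FPKM, the ratio of Krt8 to Krt18 ran from 0.912 in AI3 to 1.90 in AI10, with a median of 1.52, while each gene alone ranged far more widely.

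Cdx2 and Eomes belonged to the same set. Their r was 0.86 (rho 0.84), 0.83 within AN and 0.88 within AI, and it fell to 0.67 without AN6 and AI10. Cdx2 had an r of 0.78 with Krt8 (rho 0.91) and 0.80 without AN6 and AI10. Eomes had an r of 0.82 with Krt8 (rho 0.83) and 0.81 without the same lines. Of the 28 pairs of the 8 members, 10 had an r over 0.7, and these were the 10 pairs among Krt8, Krt18, Krt19, Cdx2 and Eomes. No pair with Hand1, Gata3 or Tfap2c did so over all 16 lines. Over all tested genes, the share with an r over 0.7 was 4.84% for Krt8, 2.78% for Cdx2 and 3.31% for Eomes. It was 1.12% for Gata3 and 0.0910% for Tfap2c, so few genes of any kind followed Gata3 or Tfap2c that closely. Hand1 had an r of 0.66 with Krt8, but it was 0.19 without AI3 and AN6, 0.89 within AN and 0.27 within AI. The r of Gata3 with Krt8 (0.34) fell to -0.01 without GS4 and AI10, and that of Tfap2c with Krt8 (0.53) fell to 0.14 without AI3 and GS4, so over all lines these relations rested on those lines. Within AI the values were 0.78 for Gata3 and 0.83 for Tfap2c, within AN -0.10 and 0.15, and without AN6 0.50 and 0.60.

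By correlation over the 16 lines, the 3 genes most like Krt8 were Krt18, Atf3 (r = 0.98) and Igfbp3 (0.97). For Krt18 they were Krt8, Synpo2l (0.97) and Atf3 (0.97), and for Krt19 Cited1 (0.97), Dsc2 (0.97) and Krt18 (0.97). Cited1 encodes a transcriptional coregulator and Dsc2 a desmosomal cadherin. Cdx2 was most like Evx1, Klhl6 and Aplnr (0.97 each). Evx1 encodes a homeobox factor of the posterior primitive streak, and Aplnr the apelin receptor of early mesoderm. Eomes was most like Cd40 (0.95), Pcsk1 (0.93) and Nrarp (0.92). Zic1 (0.85) and Mex3b (0.84) were among the genes most like Gata3. Tfap2c was most like Ccrl1 (0.80), 1600021P15Rik (0.78) and Rassf3 (0.76), and Hand1 like Scml2 (0.89), Galnt11 (0.88) and Ndufa13 (0.86). Without the 2 lines farthest from the member's median, r was 0.59, 0.64 and 0.48 for the genes of Tfap2c. It was 0.68, 0.82 and 0.78 for those of Hand1, and 0.68 (Zic1) and 0.54 (Mex3b) for Gata3. For the keratins, Cdx2 and Eomes it stayed at 0.86 (Eomes with Pcsk1) or above. These genes were picked as the highest r among 13184 genes.

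Some genes of the primitive streak, the region of the gastrulating embryo where mesoderm and endoderm arise, followed the keratins. Of 23 genes of a primitive streak and mesoderm list in the table, 8 were under the filter and 15 were tested. Of these 15, 8 had an r over 0.7 with Krt8 (53.3%), compared with 4.84% of all tested genes, and the median r was 0.79 against -0.02. Among the 15, 2 (Bmp4 and Tbx3) also stand in another list. With Cdx2 and with Eomes the count was 9 of 15 each, compared with 2.78% and 3.31% of all tested genes. Without AN6 the counts were 7 of 15 with Krt8 (median r 0.68, against 2.93% of all genes over 0.7) and 9 of 15 with each of the others. T, which encodes brachyury, had an r of 0.96 with Krt8 (rho 0.94), 0.97 without AN6, 0.96 within AN and 0.99 within AI. It had 21.8, 41.9, 92.5 and 14.7 FPKM in AN F, 24.6, 82.5, 41.9, 257 and 16.2 in AN P, 9.64, 89.0, 174 and 29.8 in AI F, and from 5.85 (GS4) to 103 (GS9) in the 3 AI P lines. As for Krt8, AN6 was highest and GS4 lowest. Wnt3 (0.96), Fgf8 (0.95), the organizer gene Gsc (0.91) and Mixl1 (0.85) followed Krt8 as well. Others did not, among them Tbx3 (-0.17), Lefty1 (0.19), Lefty2 (0.44), Kdr (0.47) and Msx2 (0.53).

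The label of trophoblast genes was set against 53 further trophoblast genes in the table. Of these, 32 had a mean of at least 0.5 FPKM and 21 did not, and 7 of the 32 also stand in another list, among them the pluripotency genes Sox2, Esrrb and Klf5. The spongiotrophoblast gene Tpbpa and the placental lactogen gene Prl3b1 were listed at 0 in all lines, and the means of Prl3d1 (0.00932 FPKM) and Synb (0.0035), a syncytin of the fused trophoblast layer, were close to 0. The median r of the 32 genes with Krt8 was -0.02, the same as for all tested genes. Of the 32, 6 had an r over 0.7 (18.8%), compared with 4.84% of all tested genes, and 2 had one under -0.7. The 6 were Arid3a (0.93), Cited1 (0.91), Cited2 (0.90), Slc2a3 (0.84), Ets2 (0.79) and Bmp8b (0.71). The summed FPKM of the genes in the table ran from 819 to 932 in AN F, 816 to 1047 in AN P, 665 to 933 in AI F and 917 to 990.3 in AI P. Other placental genes were expressed in every line, with means of 53.8 FPKM for Peg10, 30.9 for Phlda2, 3.78 for Rhox6, 3.50 for Rhox9 and 2.03 for Esx1, and of 0.491 for Gcm1 and 0.450 for Ascl2, just under the filter. Their r with Krt8 was 0.54 for Peg10 and between -0.46 and -0.25 for Phlda2, Rhox6, Rhox9 and Esx1. The list thus held genes at 0 beside genes with clear levels, and the 5 members that moved together are named here by their own names only. The placental genes named here were chosen after their values were seen.

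All 20 genes of the naive pluripotency list were tested, with means of 2.14 FPKM (Prdm14) and above. The list also holds genes of pluripotency in general, among them Pou5f1, Sox2, Sall4, Utf1 and Lin28a. Pou5f1 ran from 615 to 1222 FPKM and Nanog from 47.7 to 131, while Prdm14 ran from 1.21 to 4.04. Of the 20, 5 had an r under -0.7 with Krt8 and 0 had one over 0.7, compared with 556 of 13184 tested genes under -0.7. Fgf4 was the most opposed (r = -0.93, rho -0.93, and -0.89 without AN6), followed by Utf1 (-0.80), Nr0b1 (-0.76), Klf5 (-0.74) and Sall4 (-0.72). In AN6, Fgf4 was 7.39 FPKM and the summed FPKM of the 20 genes was 1579, the lowest of the 16 lines. GS4 had 56.9 FPKM of Fgf4 and the highest sum, 2997. Genes with high FPKM such as Pou5f1 weigh most in these sums, so the sums are not a measure of the naive state. Nanog (r = 0.40) and Dppa3 (0.10) did not share this direction.

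**Figure D3:**
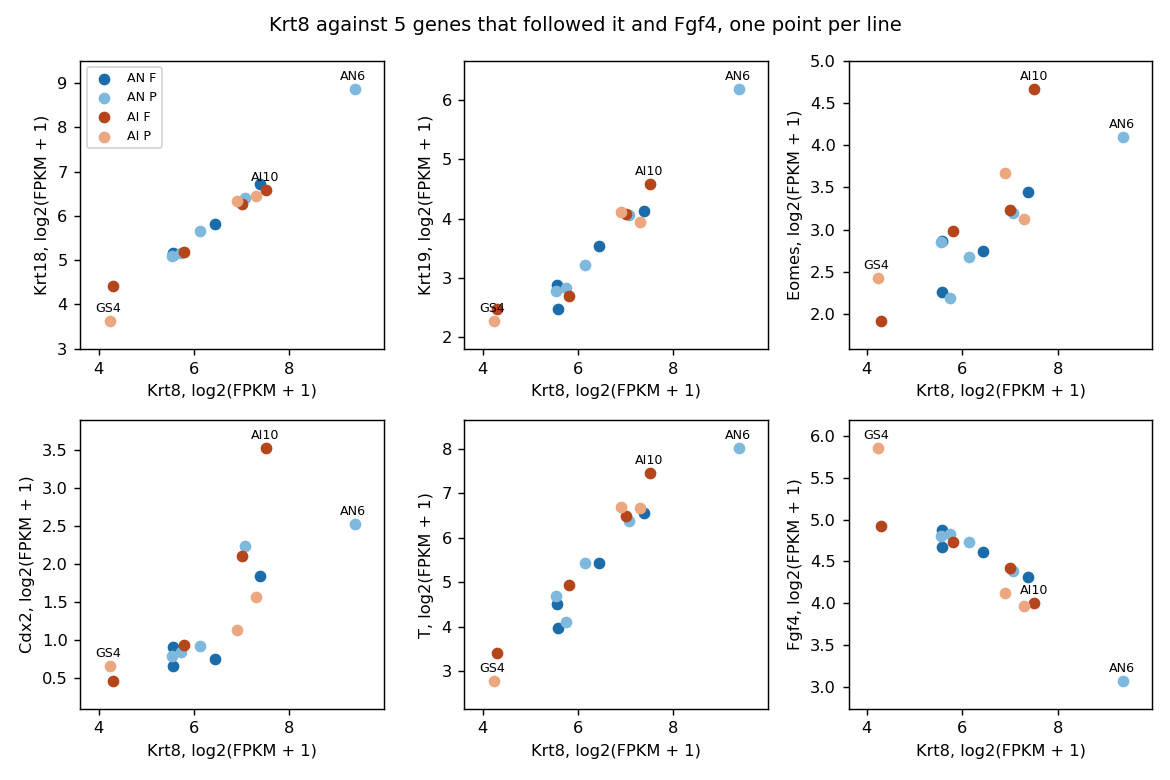
Krt8 (x axis) against Krt18, Krt19, Eomes, Cdx2, T and Fgf4 (y axes), all in log2(FPKM + 1), with 1 point per line coloured by group and AN6, AI10 and GS4 named. Krt18 lies almost on a line (r = 0.99), T rises with Krt8 (0.96) and Fgf4 falls (-0.93), and points of the 4 groups are mixed along each panel.

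Genes of an epithelial list, which holds other epithelial genes beside those of junctions, gave a mixed picture. Of 32 tested, 8 had an r over 0.7 with Krt8 (25.0%), compared with 4.84% of all tested genes. Among the 8 were the desmosomal genes Dsc2 (0.94), Dsp (0.93) and Dsg2 (0.85) and the claudin genes Cldn4 (0.92), Cldn6 (0.82) and Cldn3 (0.78). Cdh1, which encodes E-cadherin, had an r of -0.39, and Grhl2 one of -0.69. Among 21 Hippo pathway genes, 2 had an r over 0.7 with Krt8 (9.52%), Amot (0.89) and Cyr61 (0.79), and Stk4 opposed it (-0.79). The median of the list was 0.39, and Ctgf (0.39) and Ankrd1 (0.42) lay near it. The 30 fibroblast genes included 0 with an r over 0.7. Their highest r was 0.70 (Tagln), and their median was -0.01.

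**Figure D4:**
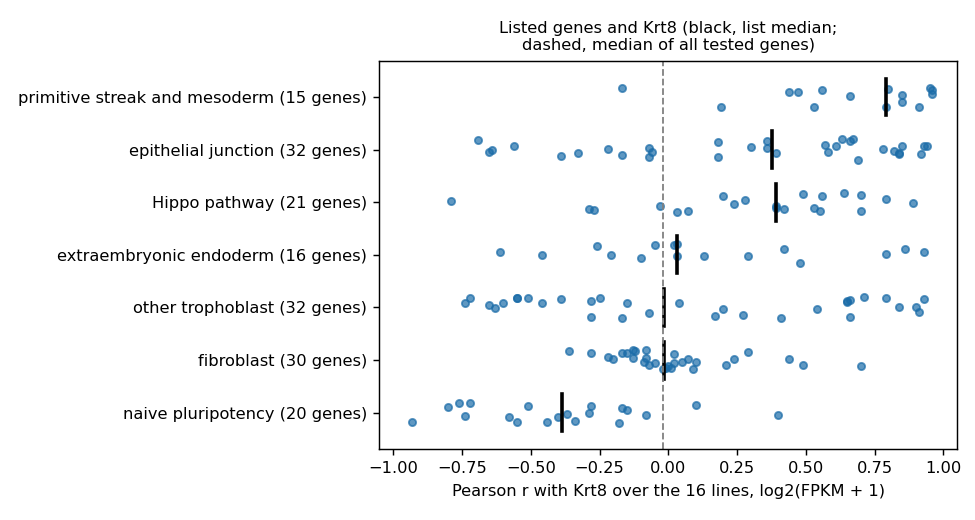
Pearson's r with Krt8 over the 16 lines (x axis) for each tested gene of 7 lists (rows), with a black bar at the list median and a dashed line at the median of all tested genes (-0.02). The primitive streak list has the highest median (0.79), the naive pluripotency list the lowest (-0.38), and the trophoblast list is spread on both sides of 0. The epithelial junction row also holds other epithelial genes, and the naive pluripotency row also holds genes of pluripotency in general.

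In none of the lists did a gene pass the adjusted threshold in any of the 4 comparisons, as for all genes, and the values below are named by the smallest unadjusted p in each list. The unadjusted share of all genes was 6.01% in AN, 7.77% in AI, 3.52% for AI against AN and 16.6% for the interaction. These shares count both directions, whereas the list counts are given by direction. Of all 13185 genes, 398 were higher and 394 lower in AN, and 458 higher and 567 lower in AI. For AI against AN, 179 were higher and 285 lower, and in the interaction 1095 were higher and 1099 lower. The primitive streak list had a median log2 difference of -0.19 in AN (F minus P) and 0.27 in AI, with 0 of 15 genes past an unadjusted p of 0.05 in any comparison. Msx1 (-0.19) and Evx1 (-0.51) had its smallest p in AN, and Lefty2 (-0.62) and Kdr (0.36) in AI. The trophoblast list had medians of -0.08 and 0.01, with 1 of 32 genes lower in AN (Tinagl1, -0.56) and 4 of 32 higher in AI, including Gata2 (0.35) and Fgfr2 (0.56). The Hippo list had medians of -0.06 and 0.37, with 2 of 21 genes higher in AN (Sav1, 0.23, and Mob1b, listed as Mobkl1a, 0.33) and 0 in AI. The epithelial list had medians of -0.10 and 0.05, with 1 of 32 genes higher in AN (Ovol2, 0.29) and, in AI, 1 higher (Anxa8, 0.75) and 2 lower, including Pkp3 (-0.32).

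Lists of other cell types were counted in the same way. The fibroblast list had medians of -0.22 in AN and 0.91 in AI, with 0 of 30 genes past it in AN and 5 of 30 higher in AI, including S100a4 (1.17) and Vim (1.06). In the extraembryonic endoderm list, with medians of -0.25 and 0.45, 1 of 16 genes was higher in AN (Lrp2, 0.29) and 4 of 16 in AI, including Plat (0.75) and Thbd (0.99). The summed FPKM of the endoderm list (1037) and of the fibroblast list (4042) were both highest in GS32. The part of feeder cells in the endoderm list was not tested. The naive list had medians of 0.13 and -0.29, with 0 of 20 genes past it in AN and 1 of 20 lower in AI (Klf2, -0.81). All genes had medians of -0.01 and -0.04. In the interaction, 19 of 30 fibroblast genes (median 1.23) and 10 of 16 endoderm genes (median 0.62) were higher unadjusted, beside 5 of 32 trophoblast, 3 of 21 Hippo, 2 of 32 epithelial and 0 of 15 streak genes, and 2 of 20 naive genes and 1 epithelial gene were lower. Tinagl1 (1.43) led the trophoblast list there, Plat (1.11) the endoderm list and S100a4 (1.37) the fibroblast list. For AI against AN, 1 trophoblast gene was higher unadjusted (Tfap2a, listed as Tcfap2a, 0.16) and 0 genes of the other 6 lists passed.

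Among the 47 keratin genes of the table, 8 reached a mean of 0.5 FPKM, and 3 were listed at 0 in all lines. Krt8, Krt18 and Krt19 together made up 92.2% of the summed keratin FPKM over the lines, between 62.6% and 97.1% in single lines. Krt7, another type II keratin of simple epithelia, had 23.1 FPKM in AN6 and between 1.27 and 5.35 elsewhere, and its r with Krt8 was 0.89. The other 4 did not follow Krt8: Krt20 had an r of 0.46, Krt10 -0.02, Krt17 -0.20 and Krt42 -0.30. GS4, with the least Krt8, had the most Krt17 (7.08 FPKM).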

How the data were processed

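RNA from 16 mouse lines was sequenced as single-end reads, 1 library per line. Per the labels and the study's methods, the authors mapped reads to mm9 with TopHat 2.1.0 and computed the deposited FPKM values with Cufflinks 2.2.1; HTSeq is named without a role in the submitters' processing notes. The source of the annotation and the handling of reads that match several keratin sequences are not given in the sources used here.

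Values were transformed to log2(FPKM + 1), and the 13185 of 22552 genes with a mean of at least 0.5 FPKM were tested with limma 3.58.1 in R 4.3.3 (mean-variance trend, Benjamini-Hochberg over all genes, threshold 0.05). F and P lines were compared within the 9 AN lines and within the 7 AI lines, and AI with AN and the interaction in all 16. This replaces the study's Cuffdiff test, which needs reads. Exact two-sided permutation tests (p as 2 times the smaller tail) used 126, 35, 3920 and 4410 rearrangements in Python 3.11.15. The fits were tested on simulated data. Correlations carry no p. Named genes were all members, from each list genes among the 2 with the smallest p in a comparison (not all of them are printed), the 3 genes most correlated with each member (1 of them is not reported here), and the keratins above 0.5 FPKM; genes with the most extreme r in a list were named after their values were seen. The members, the 7 lists and the tests were chosen with earlier results of these data known. Alternatives were another pseudocount (0.1), filter (5 FPKM or none), scaling or prior, passage or derivation as a term, and leaving out each line; leaving out AN6 from the correlations was added after its values had been seen.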

Additional observations from a re-analysis of the deposited data

Results flagged for a closer look

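Of the members' values, 7 stood apart in a group of 4 or 5 lines, by Dixon's test of the gap to the nearest line over the range of the group. Among 27 such groups, chance would give about 1.35 at the 1 in 20 level if the groups were independent and the values normal. The 3 keratins followed one another, so the groups are not independent and 7 cannot be weighed directly against 1.35. AN6 gave 4 of the 7 within AN P: Krt8 at 662 FPKM, Krt18 at 469, Krt19 at 72.1 and Elf5 at 0.0791. In AN F, Cdx2 in AN15 stood at 2.59 FPKM and Tfap2c in AN9 at 13.0. In AI F, Gata3 in AI10 stood at 1.44 FPKM. On the log2(FPKM + 1) scale, 3 of 27 groups had such a line, and the keratin values of AN6 were not among them.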

How the results depend on the processing

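No member passed an adjusted p of 0.05 in any comparison under any alternative. For AN F against AN P, AI F against AI P and AI against AN, the lowest adjusted p was 0.234 by limma. Of 471 member values under alternatives, 424 kept their direction and 47 turned it, and 8 of 24 member results never did. The cause was not tested.

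With passage as a term, AI F minus AI P was -0.32 for Krt8, -0.19 for Krt18 and -0.23 for Krt19, and with derivation as a term -0.43, -0.28 and -0.35. Quantile normalization gave -0.00113 for Krt19 there. For AI against AN, passage as a term gave 0.27, 0.18 and 0.38 for the same genes and 0.04 for Tfap2c. Without the previously identified lines these keratins had 0.28, 0.13 and 0.30, and 9 genes passed in place of 0. A pseudocount of 0.1 gave 0.00454 for Hand1.

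Leaving out 1 line at a time, AN F minus AN P ranged from -0.91 to 0.12 for Krt8, -0.88 to 0.12 for Krt18, -0.85 to 0.04 for Krt19 (the highest without AN6 each) and -0.38 to 0.10 for Eomes. AI F minus AI P ranged from -0.95 to 0.63 for Krt8, -0.79 to 0.63 for Krt18, -0.57 to 0.35 for Krt19 and -0.09 to 0.32 for Tfap2c (the lowest without GS4 each), and from -0.36 to 0.56 for Eomes, lowest without AI10. AI minus AN ranged from -0.64 to 0.12 for Krt8, -0.67 to 0.03 for Krt18, -0.27 to 0.21 for Krt19, -0.11 to 0.40 for Cdx2, -0.03 to 0.43 for Eomes, -0.16 to 0.04 for Tfap2c and -0.06 to 0.06 for Hand1. Values that kept their sign also moved: in AI, Cdx2 ranged from 0.05 to 1.07 and Gata3 from 0.04 to 0.37 (0.26 and 0.11 with derivation as a term), and in AN, Cdx2 from -0.69 to -0.16, Hand1 from -0.36 to -0.12, Gata3 from -0.19 to -0.05 and Tfap2c from -0.24 to -0.02.

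All genes together gave 0 to 1 calls in AN (1 without AN1, AN20 or AN6), 0 to 5 in AI (5 without GS9, 3 without AI10, 1 without GS4 or GS32) and 0 to 1 for AI against AN (1 without AN1, GS32 or AI9). The interaction gave 0 to 651 calls, 1 without AN1 and 651 without AI9, of which 0 were members and 25 were in the related lists. The shares of members, listed genes and all genes in that fit are not given here, so these counts were not weighed against one another. Without AI9, AI P held only the earlier lines GS4 and GS9, while AI F held GS32 and the new lines AI3, AI7 and AI10. State and derivation are therefore mixed in the 651 calls, and the part of derivation was not tested. The pairs of members with an r over 0.7 numbered 10 to 13 when a line was left out. No paired analysis was possible because the numbers in the line names only identify separate lines and pair no samples. With 1 library per line and no read counts, the precision of low values such as those of Elf5 is unknown.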

Other observations

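A few genes of the early endoderm and the anterior streak also followed the keratins. In a list of 16 tested extraembryonic endoderm genes, 3 had an r over 0.7 with Krt8 across the 16 lines (18.8%). Over all tested genes the share was 4.84%. The 3 genes were Foxa2 (0.93), Cer1 (0.86) and Dkk1 (0.79). Foxa2 encodes a forkhead factor of endoderm and of the anterior streak, and Cer1 and Dkk1 encode secreted inhibitors of Nodal, BMP and Wnt signals. The remaining genes of the list included Gata6 (0.48), Gata4 (-0.10) and the basement membrane gene Lamc1 (-0.61), and the median of the list was 0.03. These genes were picked out after their values had been seen.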
